A study of Homo sapiens with 17 samples.

Results

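Baseline RNA turnover was described in untreated HEK-293T cells, a human embryonic kidney line labelled WT for genotype, and no drug-treated sample is included. All cells grew in the same medium. In 3 libraries (untreated replicates 1 to 3) the cells received 500 µM 4-thiouridine (s4U) for 1 h, and in 1 more library they received none. Of the 17 samples of the series, these 4 were used. The genes described are those with at least 100 reads in each of the 3 s4U libraries, which 10837 of the 19222 genes in the table reached. The labels number the s4U libraries as replicates without saying whether they came from separate cultures, so the spread between them may be technical.

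A transcript's level is set by how fast it is made and how fast it is destroyed. In mammalian cells most mRNAs lose their poly(A) tail first, through the CCR4-NOT complex, and are then decapped and degraded. Transcripts of regulators that must switch off quickly are known to be short-lived, often through AU-rich or other elements in the 3' UTR, while those of ribosomal proteins and metabolic enzymes are known to be stable. TimeLapse sequencing (TL-seq) reads this out by feeding cells s4U, a uridine analog built into RNA made during the pulse. The chemistry recodes s4U so that it is read as C, and a transcript made during the pulse carries T-to-C conversions.

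The fraction new of a gene is the part of its reads that stems from RNA made during the 1 h pulse. Each read's conversions were set against its number of T positions, and the fraction new is the weight of new reads in a mixture of new and old ones. A half-life then follows if the level is constant over the hour and labelling starts at once. Cell growth was not corrected for, so loss by decay and dilution by growth are not told apart. At a constant level per cell, growth alone makes part of the RNA new, so such a half-life cannot exceed the doubling time. The doubling time was not measured, and the longest half-lives are nominal values. A fraction new of 50% corresponds to a half-life of 1 h under these assumptions, and a low fraction new to a long half-life. The half-life given for a gene is the geometric mean of the 3 libraries, and the values after ± are SDs (n = 3 libraries).

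The s4U libraries held between 22246279 and 36429562 reads given to a gene, and the library without s4U held 23905660. The genes with the read minimum took 99.3% to 99.4% of these reads, with a median of 825 to 1362 reads per gene. Conversions checked the labels: 0.935% ± 0.129 of T positions in gene reads were converted with s4U and 0.0504% without. This is an 18.5-fold difference, with the 3 s4U libraries all above the other (exact permutation test, two-sided, p = 0.25, which is the lowest possible with 3 libraries against 1). In spike-in RNA, which was never in a cell, the shares were 0.0556% ± 0.00587 and 0.0575%. Of 9 genes taken as HEK-293T markers, *VIM* lay between 571 and 637 CPM (gene reads scaled to library size) and *NEFM* between 149 and 206, whereas *PAX2* and *EYA1* stayed at 2.40 CPM or less in the s4U libraries. Of 9 markers of blood, liver, endothelial and other cells, 7 had no read in any of the 4 libraries, and *ALB* and *PECAM1* had at most 10 and 2 reads.

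The typical transcript was replaced over several hours. Median half-lives over genes were 7.13 h, 5.26 h and 4.36 h in replicates 1 to 3 (5.59 h ± 1.41), with a median fraction new of 9.26%, 12.3% and 14.7%. Over the means of the 3 libraries, the median gene had a half-life of 5.49 h. Within a library the span was wide: the gene at the 90th percentile of half-life outlasted the gene at the 10th by 11.9 ± 0.536-fold. Half-lives were under 1 h for 525 genes (4.84%) and under 2 h for 1625 (15%). At the other end, 518 genes (4.78%) had a nominal half-life over 24 h, where less than 3% of reads are new.

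**Figure D1:**
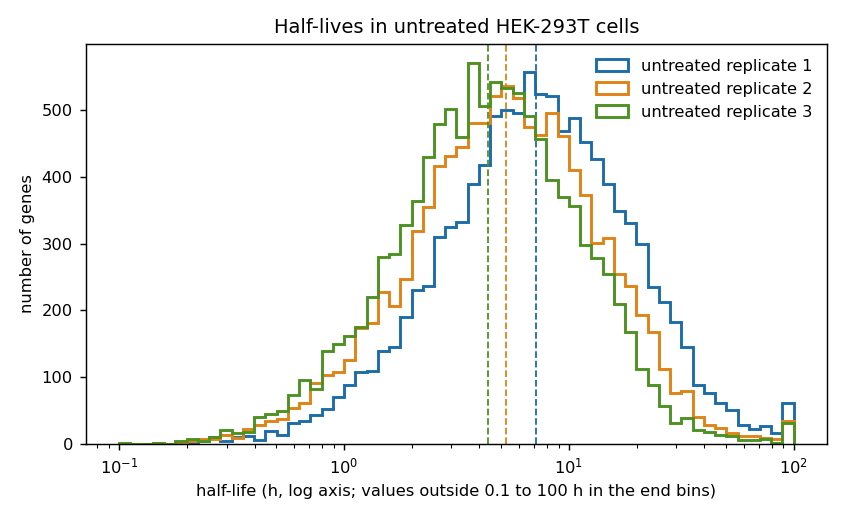
Number of genes (vertical axis) by half-life in hours (horizontal log axis) for the 10837 genes, as 1 outline per untreated replicate, with dashed lines at the medians of 7.13 h, 5.26 h and 4.36 h. The outlines have a similar shape and differ in position, replicate 1 lying toward longer half-lives.

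The libraries differed in the absolute scale more than in the order of genes. Replicate 1 had the lowest fraction new for 9523 genes (87.9%) and replicate 3 the highest for 8678 (80.1%). As a result, only 311 of the genes with a mean half-life under 1 h were under 1 h in all 3 libraries, and 182 genes were over 24 h in all 3. The fitted conversion rate of new reads lay in the opposite order, at 9.53%, 8.87% and 8.49% of T positions, and the mean number of T positions per gene read was 37.7, 43.8 and 35.3. Their part in the difference between the libraries was not tested. Across genes, which are not independent replicates, Spearman correlations of fraction new between libraries were 0.953, 0.948 and 0.956.

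For this reason each library's decay constants were divided by that library's median before genes were compared. After this step the decay constants of replicates 1 and 2 lay within 0.5 log2 units of each other for 82.4% of genes and over 1 unit apart for 4.13%. The spread between libraries narrowed with depth, from a median SD of 0.36 log2 units in the 1280 genes whose shallowest library held 100 to 199 reads to 0.12 in the 820 genes with 5000 or more. Counting error alone gave a median standard error of 2.92 percentage points of fraction new in the first of these groups and 0.222 in the second. Among genes with 1000 or more reads in each library, *TRMT61A*, *YTHDF2*, *SART3*, *RPUSD1* and *MEPCE* repeated most closely. *CHTF18*, *TSPAN7*, *BLVRB*, *GALK1* and *TUSC3* repeated least, with SDs of 0.91 to 1.35 log2 units. *MEPCE*, whose product caps the 7SK RNA, had a fraction new of 34.1%, 43.3% and 49.4%, and the values over the library medians differed by 0.0037 log2 units (SD).

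**Figure D2:**
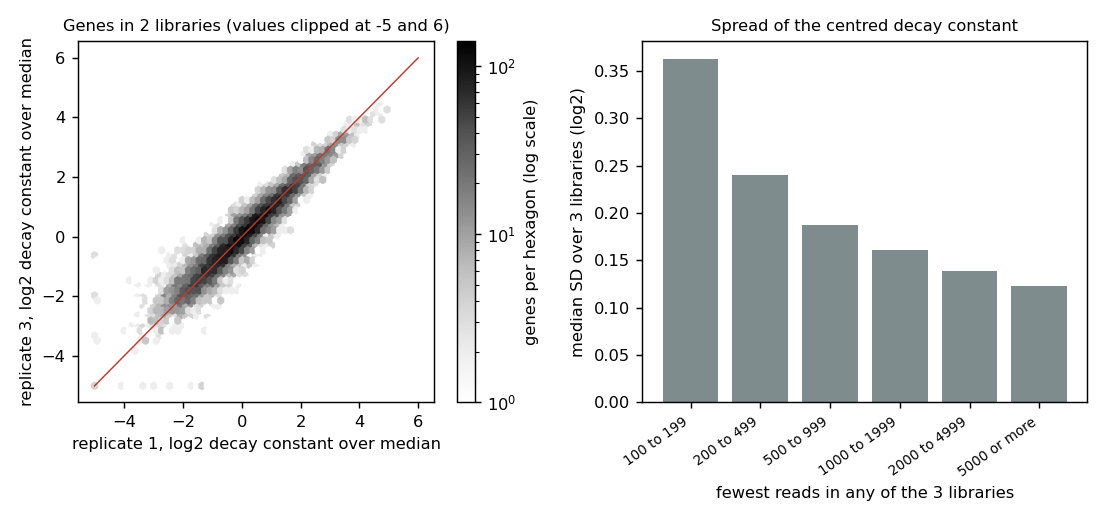
Left, log2 decay constant over the library median in replicate 1 (horizontal) against replicate 3 (vertical), shaded by the number of genes per hexagon on a log scale, with the line of equality. Right, bars of the median SD over the 3 libraries (log2 units) by the fewest reads a gene had in any of them; it falls from 0.36 at 100 to 199 reads to 0.12 at 5000 or more.

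A gene was called faster or slower when its decay constant differed from the library median by more than 2-fold at an adjusted p under 0.05 (limma, with a size threshold, Benjamini-Hochberg over all genes). By this rule 1756 of the 10837 genes (16.2%) decayed faster and 1637 (15.1%) slower, and these shares are the background for every list that follows. Both shares varied with depth. Among genes whose shallowest library held at least 100 and under 200 reads, 26.8% were faster and 3.59% slower. With 5000 or more reads, 0.854% were faster and 54.4% slower. The lists differ in level, with a median of 14.5 CPM for ZNF genes and 1251 CPM for cytosolic ribosomal proteins. The part of depth in the shares of the lists was not tested. With no size threshold 4333 genes (40%) were faster and 4372 (40.3%) slower. The faster genes held 5.33% ± 0.0222 of gene reads and 22.5% ± 0.795 of new reads. The slower genes held 40.1% ± 0.508 of gene reads and 15% ± 0.469 of new ones. With junction-spanning reads alone, 531 genes were faster and 396 slower among the 6574 genes with 100 such reads in each library. Those calls are against the library medians of these 6574 genes, a different reference, and 320 and 366 of them were also called from all reads.

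At the fast end stood transcripts of transcription factors, signalling regulators and RNA hosts. The 15 genes with the highest fraction new among those with 1000 or more reads in each library were *MIR17HG*, *HES1*, *TRIB1*, *ZFP36L2*, *JUN*, *IER5*, *MYC*, *SNHG1*, *DLX2*, *ZNF503*, *SNHG3*, *TOB2*, *ADAMTS1*, *FOXC1* and *ZNF581*. Their means ran from 94.3% down to 68.8%, and their half-lives from 14.5 min to 35.7 min. *MIR17HG* (chromosome 13, 91347686 to 91397592, plus strand, GRCh38), the noncoding host of the miR-17-92 microRNA cluster, was 93.4%, 93.5% and 95.9% new in replicates 1 to 3. *HES1* (chromosome 3, 194136148 to 194138732, plus strand), a repressor downstream of Notch that oscillates in development, was 88.4%, 94.3% and 94.3% new. *JUN* (chromosome 1, 58776845 to 58784048, minus strand), a subunit of the AP-1 transcription factor, had 78.7%, 84.3% and 90.1%. *MYC*, a growth regulator, had 67.8%, 80.0% and 85.0%. In every one of the 15 genes the fraction new exceeded 60% in each library, and all 15 were called faster (limma, adjusted p of at most 1.58e-05). The genes were chosen on the same values, so these calls are not independent support.

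AU-rich elements are the best known destabilizing sequences of short-lived mRNAs, so the 3' UTRs of the fast-end genes were searched for the nonamer TTATTTATT. Of the 12 with an annotated 3' UTR, 3 held a match and 9 did not. The first match in each of the 3 is shown as 30 bases of the GRCh38 transcript strand, 5' to 3', with the nonamer in capitals.
*ZFP36L2*, chr2:43223447-43223476, minus strand: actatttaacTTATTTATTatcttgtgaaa
*IER5*, chr1:181092443-181092472, plus strand: gtgtcttcctTTATTTATTtatttatttaa
*DLX2*, chr2:172099502-172099531, minus strand: tattttggggTTATTTATTatgaaaacaac
The *ZFP36L2* and *DLX2* 3' UTRs hold 1 nonamer each and that of *IER5* holds 3, which overlap in the stretch shown. *ZFP36L2* encodes a protein that itself binds such elements and promotes decay, and it was 80.1%, 90.3% and 89.2% new. *IER5*, an immediate early gene, was 70.1%, 81.6% and 81.5% new, and *DLX2*, a homeodomain factor, 65.9%, 78.7% and 82.5%. A match is a description of the letters and not evidence of use.

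**Figure D3:**
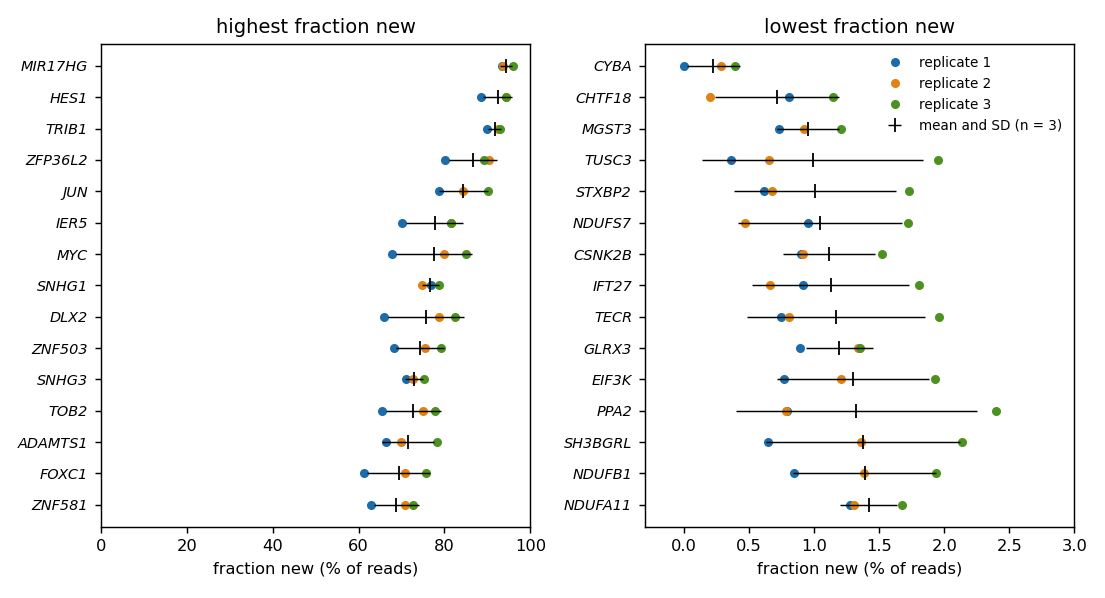
Fraction new in percent of reads (horizontal axes, of different range) for the 15 genes with the highest (left) and the 15 with the lowest (right) mean among genes with 1000 or more reads in each library; coloured points are the replicates, black ticks and lines the mean and SD. The left panel runs from 94.3% to 68.8% and the right from 0.226% to 1.42%.

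At the slow end fewer than 1 read in 50 was new. From the lowest, the 15 genes were *CYBA*, *CHTF18*, *MGST3*, *TUSC3*, *STXBP2*, *NDUFS7*, *CSNK2B*, *IFT27*, *TECR*, *GLRX3*, *EIF3K*, *PPA2*, *SH3BGRL*, *NDUFB1* and *NDUFA11*, with means of 0.226% to 1.42%. Among them are 3 subunits of mitochondrial complex I (*NDUFS7*, *NDUFB1* and *NDUFA11*). *CSNK2B* (chromosome 6, 31665227 to 31670343, plus strand), the regulatory subunit of casein kinase 2, was 0.901%, 0.915% and 1.52% new, which gave a nominal half-life of 63.9 h. *GLRX3* (chromosome 10, 130136391 to 130184521, plus strand), a glutaredoxin of iron-sulfur metabolism, had 0.895%, 1.34% and 1.35%, and a nominal half-life of 58.7 h. *MGST3*, a microsomal glutathione S-transferase, had 0.732%, 0.922% and 1.21%. For *CYBA*, the p22phox subunit of NADPH oxidase, replicate 1 stood at the lower bound set on the fraction new (0.001), so its half-life is not given. All 15 were called slower (limma, adjusted p of at most 0.0156), which is not independent support because they were chosen on the same values. A 1 h pulse separates such genes poorly: a half-life ratio of 2 between them rests on a difference of about 1 read in 100, and *CHTF18* alone ran from 0.203% to 1.14% across libraries.

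Immediate early genes, the first to be transcribed after a growth or stress signal, had a median half-life of 0.458 h. Of 28 listed, 16 had the read minimum, and 15 of these were faster and none slower. *KLF6*, a zinc finger tumour suppressor, was 91.5%, 93.2% and 95.1% new, and *CYR61* (CCN1), a secreted matrix protein, 95.3%, 91.8% and 87.9%. *JUND*, an AP-1 subunit, had a lower fraction new than its relative *JUN*, with 20.03%, 29.0% and 31.8% and a half-life of 2.25 h, but still passed the test. *SRF*, the serum response factor that switches many of these genes on, did not pass, at 20.4% ± 5.06 and 3.11 h. The 12 listed genes under the minimum have no value here.

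Feedback inhibitors of signalling also had short median half-lives. Dual-specificity MAP kinase phosphatases, which switch MAP kinases off, had a median half-life of 1.06 h, and 6 of 7 were faster and none slower. *DUSP1* was 94.95%, 96.5% and 97.2% new, a half-life of 12.6 min. *DUSP9* had 7.23%, 7.13% and 9.56%, a half-life of 8.42 h, and did not pass. Of the ID genes and inhibitors of SMAD signalling, which restrain differentiation and TGF-beta or BMP responses, 7 of 8 were faster and none slower, with a median of 0.663 h. *SMAD7*, an inhibitory SMAD, was 92.6%, 93.7% and 92.5% new, and *ID1*, a dominant negative helix-loop-helix protein, 86.8%, 94.1% and 97.5%. *SKIL*, a corepressor of SMADs, stood at 25.1% ± 7.08 and did not pass.

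Among transcription factor families, zinc finger genes formed the largest list. Of 282 ZNF genes with the minimum (493 listed), 191 were faster and none slower, with a median half-life of 1.40 h. They held 0.756% ± 0.00716 of gene reads and 2.65% ± 0.114 of new reads. *ZNF296* was 92.7%, 99.2% and 96.5% new (a half-life of 11.9 min) and *ZNF416* 89.3%, 95.02% and 95.5%. The family was not uniform: *ZNF428* (5.95% ± 1.33) and *ZNF664* (6.02% ± 2.14) had half-lives of 11.5 h and 11.7 h, and neither passed in either direction.

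BTB zinc finger genes (ZBTB) had a median half-life of 1.14 h, with 25 of 31 faster and none slower, and ran from *ZBTB6* at 81.2% ± 9.53 to *ZBTB44* at 13.4% ± 4.20. HOX genes, which give segments of the body their identity, had a median of 1.68 h, with 24 of 31 faster and none slower. *HOXA3* was 77.2%, 80.9% and 90.4% new, while *HOXD10* had 8.19%, 13.3% and 12.2%. Of 30 forkhead and SOX genes 19 were faster, of 15 KLF and SP genes 9, and none of either was slower, with medians of 1.61 h and 1.65 h. *FOXA1*, a pioneer factor of endoderm, was 79.3% ± 4.42 new, whereas *FOXM1*, which drives mitotic genes, was 7.51% ± 1.85 new and did not pass.

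Of 15 integrated stress response genes 9 were faster and 2 slower, with a median half-life of 1.95 h. *DDIT4*, an inhibitor of mTORC1, was 83.5%, 91.1% and 89.7% new, and *PPP1R15A* (GADD34), which restores translation by directing dephosphorylation of eIF2, was 76.7%, 76.4% and 84.2% new. The slower members were the serine synthesis enzymes *PHGDH* (2.22%, 3.005% and 3.59%) and *PSAT1* (3.14%, 4.53% and 5.55%). Of 18 p53 targets 7 were faster and 1 slower. *GADD45A*, a growth arrest gene, had a half-life of 30.5 min, and *BAX*, a pore former of apoptosis, 16.6 h. Among 12 circadian genes 7 were faster and none slower. *BHLHE40* (72.9%, 80.7% and 75.7%) and *NR1D1*, the REV-ERB alpha repressor (56.8%, 52.5% and 60.4%), led them, and *CRY1*, a repressor of CLOCK and BMAL1, stood at 8.03% ± 2.61.

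Noncoding transcripts had shorter median half-lives than coding ones. By annotation 212 members are long noncoding RNAs, with a median half-life of 2.70 h (82 faster, 4 slower), beside 5.60 h for 10467 protein coding genes. Their median level was lower, at 11.2 CPM beside 38.9 CPM, and the part of level in this difference was not tested. Hosts of small nucleolar RNAs carry the snoRNA in introns, and their spliced exons are often degraded in the cytoplasm. Their list had a median of 1.34 h, with 18 of 24 faster and none slower. It also names *MIR17HG* and the protein coding hosts *TAF1D* and *NOP56*, so it is not a purely noncoding list. *SNHG12* was 84.6%, 92.6% and 85.8% new and *SNHG1* 76.8%, 74.8% and 78.6%. By contrast *SNHG5* (7.74% ± 1.46) and *SNHG6* (10.2% ± 0.823) had means below the 12.1% of the median gene. Of 10 long noncoding RNAs studied for nuclear roles, 4 were faster and 1 slower. *NEAT1*, the scaffold of paraspeckles, was 55.9%, 57.6% and 58.3% new, *KCNQ1OT1*, an imprinted silencer, 53.5%, 57.0% and 63.1%, and *CRNDE* only 4.66%, 4.18% and 4.74%. Of 100 antisense RNAs 40 were faster and 1 slower, and of 42 genes with LINC names 15 and 1. Their median half-lives were 2.49 h at a median level of 11.1 CPM and 3.45 h at 8.98 CPM. The lowest quintile of all genes by level had 3.53 h at 8.19 CPM. The slower LINC gene, *LINC01420*, was 0.927%, 1.57% and 2.12% new. LINC genes were listed by symbol alone, so not every one, *LINC01420* included, need be noncoding.

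Lists of ubiquitin ligases, transcription machinery, splicing regulators and decay factors had medians from 3.25 h to 10.8 h. F-box and KLHL adaptors of ubiquitin ligases had a median half-life of 3.25 h (20 of 66 faster, 2 slower) and RNF and TRIM ubiquitin ligases 3.57 h (24 of 94 faster, 6 slower). *FBXO5* (EMI1), the inhibitor of the anaphase-promoting complex, was 64.8%, 76.8% and 78.2% new. Mediator subunits, which bridge activators and RNA polymerase II, had a median of 3.30 h and spread from *MED26* (86.4% ± 3.98) to *MED25* (1.47% ± 0.502) within 1 complex, with 7 of 30 faster and 3 slower. RNA polymerase II subunits themselves had a median of 10.8 h, with 3 of 12 slower and none faster. SR proteins and CLK kinases had a median of 4.07 h: *CLK1* (87.7% ± 3.81) and *CLK4* (78.4% ± 6.85), kinases that phosphorylate SR proteins, were among the 4 of 18 faster, and *SRSF9* (4.21% ± 0.780) was the 1 slower. CCR4-NOT and other decay factors had a median of 4.16 h with 5 of 30 faster and none slower. This share of faster genes, 16.7%, lay near the 16.2% of all genes. The faster ones included the deadenylation adaptors *TOB2* (65.5%, 74.9% and 77.7%) and *TOB1* (60.3%, 71.4% and 71.9%).

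Of the cell cycle lists, neither had as large a share of faster genes as the background. Mitotic genes had a median half-life of 5.75 h, and of 28 genes 1 was slower (*SPC25*, a kinetochore protein, at 1.65% ± 0.867) and none faster. DNA replication genes had a median of 8.20 h, with 2 of 31 faster and 5 slower. Their share of slower genes, 16.1%, lay near the 15.1% of all genes. *CDT1*, the licensing factor that must be limited to a single round per cycle, was 26.2%, 32.6% and 33.7% new, while *CDC45*, part of the replicative helicase it helps to load, was 1.44%, 1.96% and 4.30% new. Nucleoporins (5.43 h, 1 of 19 faster, 4 slower) and solute carriers of the plasma membrane (5.92 h, 7 of 128 faster, 11 slower) had medians near the 5.49 h of all genes. Mitochondrial SLC25 carriers did too (5.78 h, 4 of 40 faster, 6 slower), and their share of slower genes, 15%, lay near that of all genes. Replication-dependent histones cannot be described: only 3 of 51 had the read minimum in these libraries, whose kit selects poly(A) RNA, and neither direction was called.

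Metabolic and folding pathways held both short-lived and long-lived members. Of 23 genes of cholesterol synthesis and its SREBP control, 2 were faster and 2 slower, with a median of 8.73 h. *MSMO1*, a sterol monooxygenase, was 23.4%, 37.2% and 36.1% new, and *FDPS*, a synthetic enzyme upstream of it, 1.88%, 2.57% and 3.69%. Of 19 chaperones and unfolded protein response genes of the ER, 4 were faster and 5 slower. *DNAJB9*, a cochaperone of BiP, had a half-life of 24.01 min and *P4HB*, protein disulfide isomerase, of 16.2 h. Of 19 cytosolic chaperones 1 was faster and 11 slower (median 13.3 h): *DNAJB1*, an HSP40 induced by heat, was 34.0% ± 9.001 new, and *CCT7*, a subunit of the TRiC chaperonin, 3.15% ± 0.650.

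Among the lists with the longest medians were cytosolic ribosomal proteins, oxidative phosphorylation subunits and glycolytic enzymes. Cytosolic ribosomal proteins had a median half-life of 19.0 h, and 69 of 78 were slower. They made up 10.8% ± 0.374 of gene reads but 4.04% ± 0.118 of new reads. *RPS21* was 1.64%, 2.41% and 3.07% new, and *RPS10* 1.92%, 1.77% and 2.82%. The only faster member was *RPL36A*, at 70.0%, 33.3% and 74.7%. This value is uncertain: 64.4% of the reads that name *RPL36A* were shared with an overlapping gene and left out, and 84.3% of those of *RPS10*. Mitochondrial ribosomal proteins had a shorter median of 8.13 h, with 1 of 77 faster (*MRPL17*, 28.4% ± 3.93) and 13 slower. This share of slower genes, 16.9%, lay near the 15.1% of all genes.

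Translation initiation and elongation factors had a median half-life of 9.46 h, with 21 of 56 slower and 4 faster. The list was drawn by EIF and EEF symbols, which also cover regulators of translation such as the eIF2 kinases. *EIF4A2*, an RNA helicase of cap-dependent initiation, was 47.1%, 52.0% and 55.6% new, while the initiation factor subunit *EIF3K* was 0.773%, 1.21% and 1.93% new. Aminoacyl-tRNA synthetases, which charge tRNAs, had a median of 9.89 h, with 13 of 37 slower. The 2 faster were the mitochondrial enzymes *PARS2* (57.5% ± 16.2) and *MARS2* (54.0% ± 9.19).

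Nuclear-encoded subunits of oxidative phosphorylation had the longest median of the 42 function lists measured, at 21.4 h, with 61 of 76 slower and none faster. The members with the highest fraction new, *ATP5SL* (10.3% ± 2.70), which despite its symbol is known as an assembly factor of complex I, and *UQCRFS1* (9.95% ± 1.78), the Rieske protein of complex III, had half-lives of 6.55 h and 6.69 h. Glycolytic enzymes had a median of 18.1 h and 13 of 17 slower. *GAPDH* was 3.88%, 4.47% and 4.53% new, a half-life of 15.8 h, and *HK2*, the inducible hexokinase, 15.4%, 19.7% and 26.0%. TCA cycle enzymes (14.9 h; 13 of 20 slower), proteasome subunits (14.6 h; 26 of 44 slower), V-ATPase subunits and lysosomal proteins (12.5 h; 17 of 36 slower) and integrins, cadherins, laminins and collagens (15.9 h; 15 of 34 slower) had no faster member. Sm proteins and SF3 subunits of the spliceosome (10.7 h, 7 of 21 slower) and actins and tubulins (9.62 h, 2 of 12 slower) had none either. For actins and tubulins the share of slower genes, 16.7%, was near the 15.1% of all genes. *PSMB4*, a subunit of the proteasome core, was 1.82%, 2.81% and 3.13% new.

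**Figure D4:**
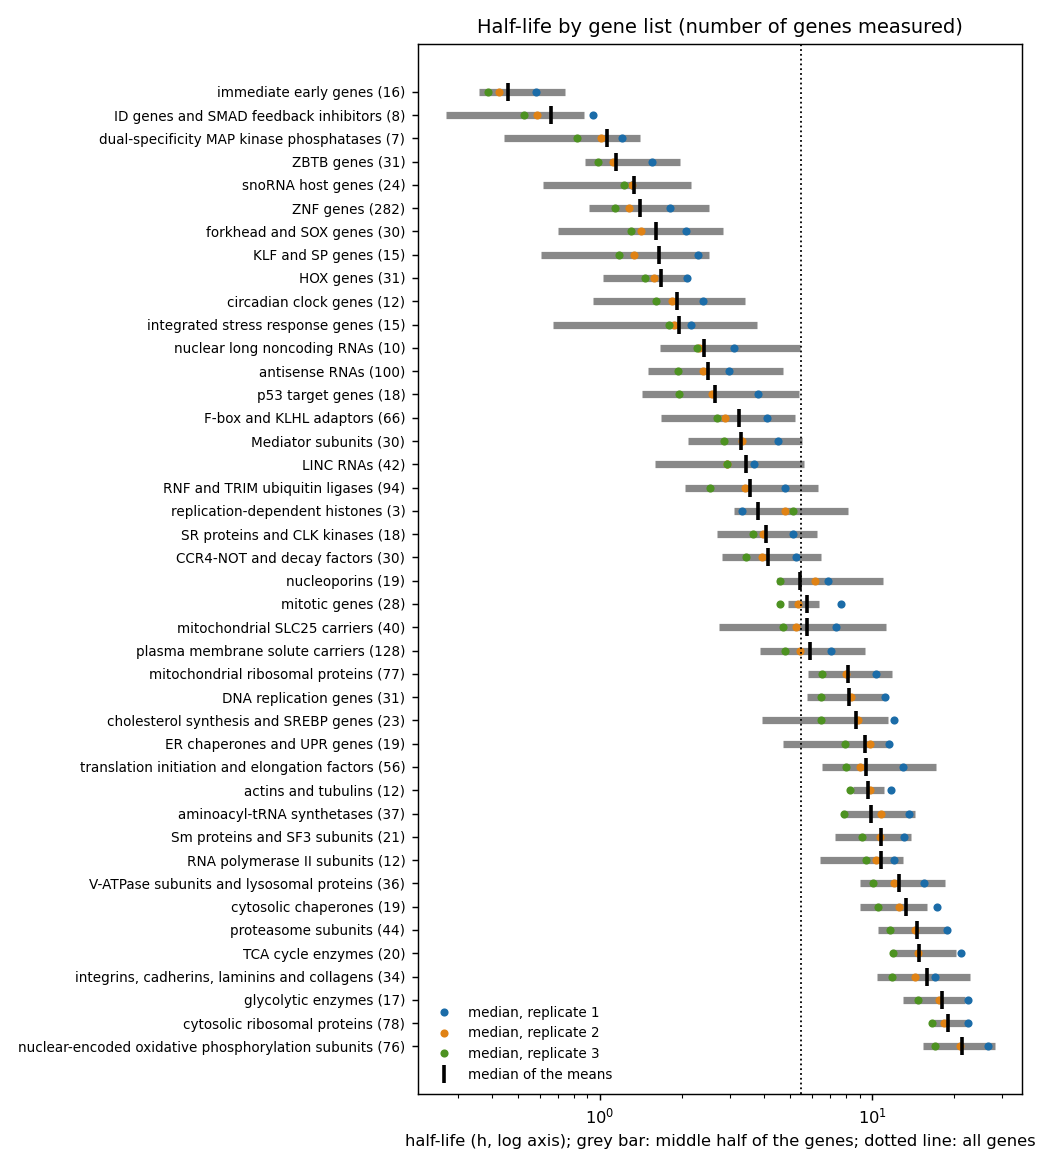
Half-life in hours (horizontal log axis) for 42 gene lists, with the number of genes measured in brackets; grey bars are interquartile ranges over genes, coloured points the median in each replicate, black ticks the median of gene means, and the dotted line the median of all genes, 5.49 h. Medians run from 0.458 h for immediate early genes to 21.4 h for oxidative phosphorylation subunits, and replicate 1 has the longest median in most lists.

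Transcripts that the study names or follows singly spanned this range. Those of *ZNF57* (91.5%, 89.7% and 86.8%), *TXNIP* (91.9%, 92.2% and 93.2%) and *BRF2* (57.6%, 73.9% and 71.3%) were called faster, as was *MAT2A*, the S-adenosylmethionine synthetase, at 29.5%, 33.5% and 40.6%. *NETO2* (12.8%, 20.8% and 24.03%) was not called. *RPL35*, a ribosomal protein, was slower, at 2.98%, 3.44% and 4.26%, like *GAPDH*. In all, 9 of these 12 were faster and 2 slower. The study chose some of them on these samples and others as transcripts of known half-life, so the counts are not independent evidence.

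Half-life varied with how a gene is built and how strongly it is expressed. Per kilobase of the annotated transcript, the quintile of coding genes with the fewest exon junctions had a median half-life of 2.69 h and the quintile with the most 10.6 h (Spearman 0.477 across 10467 genes, 0.457 to 0.489 by library). In the 6490 coding genes with 100 junction-spanning reads in each library the correlation was 0.306 from all reads and 0.260 from junction-spanning reads alone. Called genes moved alike: 40.7% were faster in the lowest quintile and 1.67% in the highest. The 169 coding genes with a single exon had a median of 1.596 h, and 64.5% were faster. Genes with long 3' UTRs were shorter-lived, with 10.8 h in the quintile of genes with the shortest and 4.43 h in that with the longest (Spearman -0.298). Expression level went the other way, from 3.53 h in the lowest quintile by CPM to 10.3 h in the highest (Spearman 0.394). GC content of the transcript (0.098) and of wobble positions of codons (0.055) were only weakly related to half-life. These correlations are across genes, which share libraries, and the features are related to each other. T positions per read, which bear on the precision of the estimate, correlated at -0.175. Among the genes with the most reads 54.4% were slower and 0.854% faster, and among those with the fewest 3.59% and 26.8%; the part of depth in these shares was not tested.

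**Figure D5:**
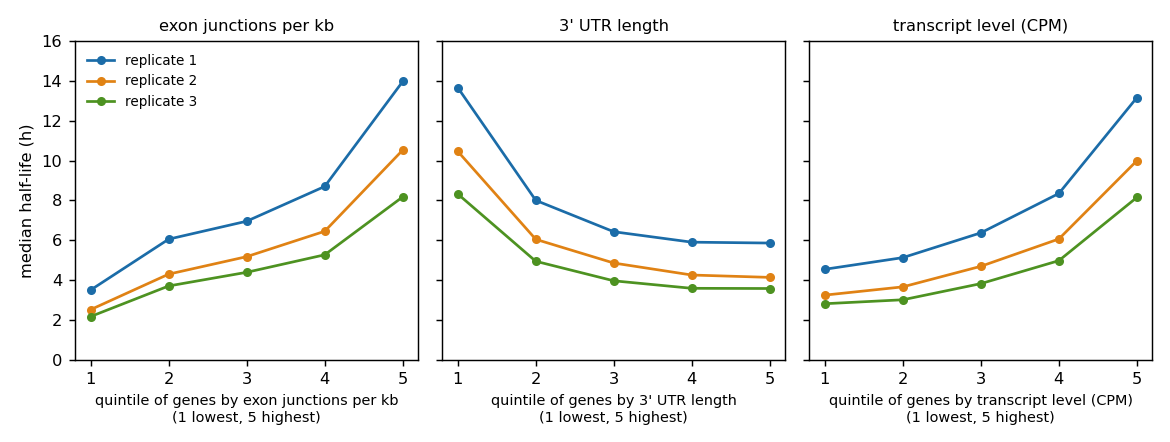
Median half-life in hours (vertical axis) of genes split into quintiles by exon junctions per kilobase, 3' UTR length and transcript level (left to right), with 1 line per untreated replicate. It rises from left to right in the left and right panels and falls in the middle one, in each replicate.

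The AU-rich nonamer was more frequent in short-lived transcripts. TTATTTATT, searched on the transcript strand, occurred in the 3' UTR of 9.53% of 10462 coding genes, 14.6% of the faster, 9.62% of those not called and 4.02% of the slower. Genes without it had a median half-life of 5.82 h (9465 genes) and those with 1 match 3.91 h (777 genes). Further matches did not go with a shorter median: it was 3.94 h with 2 and 4.20 h with 3 or more. Because long 3' UTRs hold more matches, genes were also compared within quintiles of 3' UTR length. Genes with the nonamer had the shorter median in each quintile, by the most in the shortest group (4.32 h beside 10.9 h, 32 genes with it) and the least in the longest (4.23 h beside 4.49 h). ATTTA, the pentamer contained in the nonamer, was found in 74.6% of all, 84.9% of faster and 51.02% of slower genes, and TGTANATA, bound by Pumilio proteins, in 31.4%, 42.3% and 13.7%. Median 3' UTR lengths differed too, at 1706 bases in faster and 489 in slower genes. Per kilobase of 3' UTR the contrast was smaller. The nonamer occurred 0.0866 times in faster, 0.0594 in uncalled and 0.0582 in slower genes, ATTTA 2.35, 2.30 and 1.97 times, and TGTANATA 0.303, 0.233 and 0.157 times.

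Reads that span a splice junction come from spliced RNA, and their fraction new was lower. In the 6574 genes with 100 such reads in each library the median was 4.87%, 6.76% and 8.47% in replicates 1 to 3, beside 6.64%, 8.82% and 10.9% from all reads of the same genes. Spliced reads gave the lower value for 80.7% to 85.2% of genes. Median half-life lengthened from 7.76 h to 10.4 h, while the order of genes changed less (Spearman 0.884 to 0.916). Of the 525 genes under 1 h, 58 could be measured this way and 48 stayed under 1 h. *CLK1* was 86.6% ± 3.30 new from junction reads and 87.7% ± 3.81 from all, and *DLX2* 73.9% ± 6.05 and 75.7% ± 8.73. *EIF1AD*, by contrast, had 25.8% ± 6.66 from junction reads and 50.5% ± 8.27 from all, and *NETO2* 9.33% ± 1.68 and 19.2% ± 5.80.

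By list, the same genes had medians at least 1.5 times longer from junction reads for nucleoporins (9.30 h beside 5.997 h, 18 genes), mitochondrial SLC25 carriers (12.8 h beside 8.42 h, 24 genes), forkhead and SOX genes (5.62 h beside 2.85 h, 5 genes) and circadian genes (9.08 h beside 4.47 h, 3 genes), and for the genes the study names or follows singly (4.89 h beside 2.51 h, 6 genes). For 77 ribosomal proteins the values were 19.9 h and 19.0 h, and for 76 oxidative phosphorylation subunits 23.7 h and 21.4 h. Only 36 of 282 ZNF genes could be measured, with 5.58 h from junction reads and 4.12 h from all, so the short ZNF median rests on genes with few spliced reads. Few were measurable among immediate early (2 of 16), ZBTB (3 of 31) and HOX genes (2 of 31). The same held for KLF and SP genes (1 of 15) and MAP kinase phosphatases (2 of 7). Measurable immediate early genes and phosphatases had all-read medians of 1.78 h and 4.32 h, beside 0.458 h and 1.06 h in full lists. Cover was better for ID and SMAD inhibitor genes (4 of 8) and snoRNA hosts (19 of 24). Medians with so few genes were not tested in spliced RNA where cover was thin.

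In the library without s4U, the same estimate gave an apparent fraction new over 1% for 38 genes (0.351%), where a true value is 0. The highest were *TGIF1* (3.65%), *SNHG16* (3.47%), *SMIM10* (3.02%), *FOXD2* (2.96%) and *SUV420H2* (2.66%). At the 100-read minimum the values are coarse: just inside it, *ATP6V1B1-AS1* was 11.9% ± 4.54 and *B4GALNT4* 5.09% ± 2.75 new, and just outside, with 99 reads in replicate 3, *CASC9* was 8.13% ± 3.94 and *CCDC157* 27.1% ± 8.24.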

How the data were processed

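TL-seq read counts were used from 4 of 17 libraries. Per the labels and the study's methods, the authors made poly(A)-selected stranded libraries, trimmed reads with cutadapt, mapped them to hg38 with HISAT-3N and used bam2bakR. In the deposited table, values are read counts by library, gene, number of T positions and number of T-to-C conversions (other whole numbers), not normalized; its annotation is not given in the sources used here. The authors' tables of log2 fold changes and p-values and the 2 h libraries were not used.

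Fraction new was the maximum likelihood weight of a 2-component binomial mixture (numpy 2.4.6, pandas 2.3.3, scipy 1.17.1), bounded at 0.001 and 0.999, with the background rate of the library without s4U (0.0504% of T positions) and a new-read rate fitted per library. The study used bakR, which was not run. The decay constant is −ln(1 − fraction new) per h, and the half-life ln(2) over it. Log2 decay constants centred on each library's median were tested with limma 3.58.1 in R 4.3.3 (a size threshold of 2 times, two-sided, variance trend on reads, robust, intercept only), with Benjamini-Hochberg adjustment over 10837 genes and a threshold of 0.05. The test was also run on simulated data (3000 genes). It called 90.2% of genes changed by -2 log2 units, 73.1% by -1.5, 72.1% by 1.5 and 100% by 2. Of its calls 0% were false, but unchanged genes were simulated around the library median, well inside the size threshold. A false call was thus unlikely from the start, and the simulation does not cover genes near the threshold. Reads naming more than 1 gene were left out. Gene models are GENCODE 44 canonical transcripts, matched by symbol or RefSeq synonym for 99.1% of genes.

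The genes and lists were chosen with earlier results of these data known. Genes named are the 2 highest and 2 lowest by fraction new in each list, the 15 at each end among genes with 1000 or more reads and at most 1% apparent fraction new without s4U, genes the study names or follows singly, those at the read minimum, the 5 highest without s4U and the 5 most and least variable; the junction-read examples *CLK1*, *DLX2*, *EIF1AD* and *NETO2* were picked after their values were seen. Intervals and standard errors of counting cover counting error only. Alternatives changed the read minimum, the rates, the bounds, the size threshold, the centring, the scale and the libraries. Another took the fraction new from the share of reads with 2 or more conversions. A further one, chosen after seeing the data, changed the reads (junction-spanning only).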

Additional observations from a re-analysis of the deposited data

Results flagged for a closer look

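Reads that no gene received carried more conversions than gene reads. On nuclear chromosomes 4.04% ± 0.251 of their T positions were converted with s4U (SD, n = 3) and 0.0392% in the library without s4U, a signal outside the gene measurements. They made up 10.0% to 10.5% of each s4U library.

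On the mitochondrial chromosome, where no read was given to a gene, 2.11% ± 0.0263 of T positions were converted with s4U and 0.0668% without. These reads made up 6.40% to 7.17% of each s4U library. Mitochondrially encoded transcripts therefore have no half-life here.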

How the results depend on the processing

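Both counts and both medians kept their size under a minimum of 50 reads, other rates and bounds and the removal of genes with apparent conversions. They also did when the fraction new came from the share of reads with 2 or more conversions. On the logit scale, without variance trend and robust fit, and without centring, only the counts were computed, and they stayed within 1.5 times of the values in the report. With 500 reads there were 1048 faster and 1018 slower genes among 7150 (770 and 1018 of them also called in the main setting). A size threshold of 1.5 times gave 2748 and 2707, and any size 4333 and 4372. From junction reads there were 531 and 396 among 6574 genes (320 and 366 of them also called from all reads). The median fraction new was 6.70% and the median half-life 10.5 h. With 500 reads and with junction reads fewer genes were tested. Each set was centred on the medians of its own genes, so the reference differs from the main one. Leaving out 1 library at a time gave 1470 to 1582 faster genes, 1434 to 1531 slower genes, a median fraction new of 10.8% to 13.5% and a median half-life of 4.81 h to 6.20 h. No paired analysis was possible because 1 group of libraries was described. No result reversed under these settings. Of 86 list counts of faster or slower genes, 59 moved by over 1.5 times with junction reads, 55 at any size, 36 at 1.5 times, 34 with 500 reads and 19 without centring; under the other settings at most 8 did. Among the 43 list medians, 31 moved with junction reads and 14 with 500 reads. Of the named genes with enough junction reads, 29 moved and 102 did not. From the share of reads with 2 or more conversions, 13 named genes moved and 189 did not. Half-lives assume a constant level, which was not tested, and they were not corrected for cell growth.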
